A study of Mus musculus with 22 samples.

Results

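The response to zinc was examined in 6 small-intestine libraries of GRDim mice that held few smooth-muscle transcripts, 3 from mice on zinc and 3 from mice on normal drinking water, out of 22 libraries in all. GRDim mice carry a point-mutant glucocorticoid receptor that forms dimers poorly, in every cell and on both alleles. All mice were female FVB/N animals of 8 to 14 weeks from heterozygous intercrosses, kept in a conventional animal house. Zinc was given as 25 mM zinc sulfate in the drinking water over 7 days. These 6 were selected on their own counts: they are the GRDim libraries with under 100 CPM (counts scaled to the total of the library) of Myh11, the smooth-muscle myosin heavy chain, whatever tissue their label names. Myh11 stood at 5.76 to 14.4 CPM in them and at 308 to 414 CPM in the other 6 GRDim libraries, so that the nearest values on either side of the threshold were 14.4 and 308 CPM. Since Myh11 chose the libraries, these values are a description.

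The 3 zinc libraries (replicates 4, 5 and 6) carry the label IEC, given to material scraped out of the flushed distal ileum, and the 3 water libraries the label ileum, given to a washed piece of the whole tissue. Drinking water and tissue label are therefore the same split here and cannot be told apart. The 22 libraries were sequenced in 2 sets, and no sample label says which library belongs to which set. The column names carry a numeral that follows the tissue label, so if it marks the set, that split too is the same one and cannot be told apart from drinking water. The water libraries go against their label in being poor in muscle, and the GRDim libraries that are rich in muscle carry the labels the other way round, ileum on zinc and IEC on water. One water library is replicate 1, and the other 2 share a single column name, so their replicate numbers are unknown and they are called unnumbered a and unnumbered b. Nothing in the labels says whether libraries came from separate mice, so p-values measure the spread between these libraries, which may in part be technical.

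Total counts ran from 13487057 to 14484582 in the 6 libraries, which puts 3 counts, used as the floor of detection, at 0.207 to 0.222 CPM. Such floors cover counting error only. No pair of replicates held identical values. The 10 epithelium markers (Epcam, Vil1, keratins, Cdx1, Cdx2 and others) summed to 24338 to 26172 CPM in the water libraries and 23917 to 27828 CPM in the zinc libraries, with none called. Of the 8 neuron and glia markers and the 4 adipocyte markers none was expressed highly enough to test. The mitochondrial share of counts was 3.04%, 4.11% and 4.23% in the water libraries and 4.22%, 2.63% and 2.06% in zinc libraries 4, 5 and 6, and its part in the results was not tested.

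Enterocytes take zinc up from the lumen through the importer Slc39a4 (ZIP4) and pass it on or store it through Slc30 (ZnT) exporters, while metallothioneins bind the excess. The transcription factor Mtf1 senses free zinc and binds metal response elements in the metallothionein promoters. The gut epithelium also keeps up a basal interferon programme, driven in large part by the microbiota, which includes guanylate-binding proteins (Gbp) and immunity-related GTPases (Irgm1, Iigp1, Tgtp1) that act against intracellular microbes.

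Of 13328 genes tested, 87 (0.653%) were higher and 140 (1.05%) were lower in the zinc libraries, at a Benjamini-Hochberg adjusted p under 0.05 in edgeR's quasi-likelihood test and a log2 fold change beyond 0.8. The genes called higher included 3 metallothioneins and the zinc exporter Slc30a2, and those called lower included GTPases, other interferon-induced genes and the zinc importer Slc39a4. All 227 called genes had groups that did not overlap, which also held for 26.9% of all genes tested. With adjusted p alone, 405 genes were higher and 327 lower. The calls rest in part on single libraries: 27 of the 87 and 59 of the 140 stayed called whichever of the 6 libraries was left out. Without water replicate 1 the counts were 41 and 79, without unnumbered a 47 and 76, without zinc replicate 5 72 and 92, and without zinc replicate 6 120 and 242.

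The 3 largest rises were those of metallothioneins, small cysteine-rich proteins that bind zinc. Mt1 stood at 79.7, 95.4 and 117 CPM in the water libraries (replicate 1, unnumbered a and unnumbered b, the order used throughout) and at 1255, 1189 and 1496 CPM in zinc replicates 4, 5 and 6 (log2 fold change 3.75 ± 0.15 (SE), adjusted p = 1.39e-06). Mt2 rose from 6.01, 10.1 and 15.8 CPM to 292, 213 and 273 CPM (log2 fold change 4.60 ± 0.33 (SE), adjusted p = 0.0023). For both genes every zinc library was above every water library by a wide margin. Mt4, best known from stratified epithelia, was at the floor on water, with 2, 2 and 3 counts (0.148, 0.147 and 0.204 CPM), and reached 13.5, 18.3 and 10.8 CPM on zinc. The summed counts were 7 on water and 580 on zinc, and their ratio after scaling to the summed library totals was 84.2, with an exact 95% counting interval of 40.6 to 210.4 (adjusted p = 1.81e-06 in edgeR). These 3 genes were called whichever of the 6 libraries was left out and under the other settings listed at the end. Mt2 overlaps Gm45774 on the other strand, and whether counting used the strand is not stated. Mtf1 itself stood at 82.4, 81.8 and 72.7 CPM on water and 78.7, 82.0 and 83.6 CPM on zinc (log2 fold change 0.04 ± 0.08 (SE), adjusted p = 0.787), with overlapping groups.

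The metallothionein genes lie together on chromosome 8 in the mouse build mm10, Mt4 at 94137197 to 94139031, Mt2 at 94172664 to 94173568 and Mt1 at 94179082 to 94180327, all on the plus strand. The RefSeq transcript starts used for the windows below differ from these gene starts, which come from another annotation. The promoter windows of Mt1 and Mt2, from 250 bases before to 50 bases after the RefSeq start, are shown because these genes carried the largest called changes at high counts. They are RefSeq sequences on GRCm38.p6, the same build, and capitals mark the metal response element core, TGCACNC or TGCGCNC on either strand, which was found at 3 places in the Mt1 window and 4 in the Mt2 window.
Mt1, chr8:94178839-94179138, plus strand: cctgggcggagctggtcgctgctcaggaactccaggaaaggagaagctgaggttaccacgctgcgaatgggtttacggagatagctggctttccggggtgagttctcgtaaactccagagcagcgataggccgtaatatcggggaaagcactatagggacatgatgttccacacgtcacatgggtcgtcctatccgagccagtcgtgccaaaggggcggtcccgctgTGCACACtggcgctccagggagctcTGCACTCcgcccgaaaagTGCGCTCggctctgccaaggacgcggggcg
Mt2, chr8:94172368-94172667, plus strand: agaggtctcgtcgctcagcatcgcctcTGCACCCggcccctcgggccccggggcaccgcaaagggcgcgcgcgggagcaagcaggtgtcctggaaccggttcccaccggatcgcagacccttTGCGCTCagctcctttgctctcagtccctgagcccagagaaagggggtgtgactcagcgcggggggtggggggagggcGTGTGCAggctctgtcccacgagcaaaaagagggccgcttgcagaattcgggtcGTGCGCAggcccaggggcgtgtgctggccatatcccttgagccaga
This short core is common: 35% of the 12512 windows of tested genes held at least 1 match, and 11% held 2 or more. A match is a description of the letters, not of a bound site. Windows were found for 9824 of the 13328 genes tested, and for only 59 of the 87 higher and 85 of the 140 lower genes, under 80% of each, so that a comparison of motif shares between those sets would be void and is not given.

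Among zinc transporters, 2 of 8 Slc30 exporters tested rose and 1 of 12 Slc39 importers fell, beside 0.653% of all genes higher and 1.05% lower. Slc30a2 (ZnT2), which loads zinc into vesicles and is known from Paneth cell granules, rose from 90.9, 73.5 and 68.2 CPM to 229, 239 and 271 CPM (log2 fold change 1.67 ± 0.11 (SE), adjusted p = 1.76e-05). Slc30a10, a manganese and zinc exporter, rose from 23.9, 16.1 and 20.7 CPM to 43.7, 40.3 and 38.3 CPM (log2 fold change 1.01 ± 0.13 (SE), adjusted p = 0.00148), though it overlaps Gm2061 on the other strand. Slc39a4, the main luminal importer, fell from 289.9, 281 and 263 CPM to 89.8, 87.9 and 78.9 CPM (log2 fold change -1.70 ± 0.08 (SE), adjusted p = 7.9e-07). All 3 changes kept their call whichever library was left out, and in each the groups were well apart, but that of Slc30a10 was lost with all 12 GRDim libraries in the fit (adjusted p = 0.0537). The basolateral exporter Slc30a1 stood at 135, 165 and 145 CPM on water and 179.7, 183 and 171 CPM on zinc (log2 fold change 0.26 ± 0.08 (SE), adjusted p = 0.0935), and did not pass the test. The basolateral importer Slc39a5 had a log2 fold change of 0.18 (adjusted p = 0.153) and the importer Slc39a10 of -0.63 (adjusted p = 0.163), neither called. Without zinc replicate 5, Slc39a10 reached the call at -0.995 (adjusted p = 0.0304). The median log2 fold change was 0.09 over the exporters and -0.07 over the importers, beside -0.00052 over all genes tested.

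**Figure D1:**
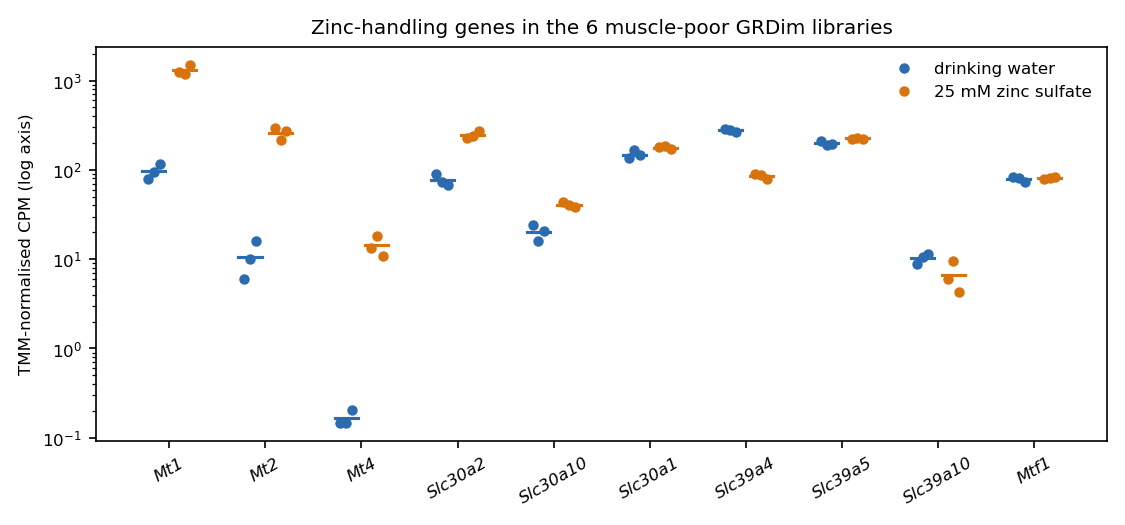
TMM-normalised CPM on a log axis for 10 zinc-handling genes in the 6 libraries; each point is a library, blue for water and orange for zinc, and the bars are group means. Mt1, Mt2, Mt4, Slc30a2 and Slc30a10 lie higher and Slc39a4 lower in all 3 zinc libraries, while the groups overlap for Mtf1 and Slc39a10.

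The other genes among the 12 largest rises had various roles. Clu, which encodes the secreted chaperone clusterin, rose from 6.45, 4.55 and 8.03 CPM to 41.4, 39.3 and 41.4 CPM (log2 fold change 2.67 ± 0.15 (SE), adjusted p = 4e-06). Hsd3b3, a hydroxysteroid dehydrogenase of steroid metabolism, rose from 0.519, 1.32 and 2.45 CPM to 11.6, 9.64 and 7.46 CPM (log2 fold change 2.71 ± 0.37 (SE), adjusted p = 0.00427). The cytidine deaminase Cda rose from 2.97, 2.86 and 2.86 CPM to 13.6, 12.5 and 10.2 CPM (log2 fold change 2.06 ± 0.16 (SE), adjusted p = 6.6e-05). In these 3 genes every zinc library lay well above the highest water library. Crym, a thyroid hormone binding protein, rose by 1.88 on the log2 scale (adjusted p = 7.69e-05), Syt17, of the synaptotagmin family, by 2.18 (adjusted p = 0.00434), the protocadherin Pcdh19 by 2.14 (adjusted p = 0.00677) and the interleukin-5 receptor chain Il5ra by 1.89 (adjusted p = 0.00804). G6pc, the catalytic subunit of glucose-6-phosphatase, rose by 2.18 (adjusted p = 0.0132), a call lost without water replicate 1 (adjusted p = 0.0607) or unnumbered a (adjusted p = 0.0756). With the muscle-poor GRWT water libraries added to the fit, the calls of Il5ra and G6pc were lost. Outside the 12, Agtpbp1, a zinc-dependent carboxypeptidase that trims glutamate from tubulin, stood at 3.41, 3.53 and 4.76 CPM on water and 11.1, 12.6 and 9.79 CPM on zinc (log2 fold change 1.51 ± 0.17 (SE), adjusted p = 0.00083). Hsd3b3 overlaps Zfp697 and Pcdh19 overlaps Gm26851, both on the other strand.

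The gene lists were chosen with earlier results of these data known. Among them, the strongest pattern of lowered genes was in the list of 35 interferon-gamma-induced and GTPase genes. Of these, 19 were called lower and none higher, beside 1.05% of all genes lower, and 34 of 35 had a negative log2 fold change (median -1.01, beside -0.00052 over all genes). Iigp1, an immunity-related GTPase, fell from 71.8, 55.4 and 52.8 CPM to 7.60, 7.98 and 8.44 CPM (log2 fold change -2.90 ± 0.13 (SE), adjusted p = 7.9e-07). Its 3 zinc values lay close together and far below the lowest water value. Irgm1, a regulatory GTPase of the same family, fell from 220.1, 199 and 177 CPM to 90.7, 99.2 and 106 CPM (log2 fold change -1.01 ± 0.09 (SE), adjusted p = 0.000222). The T-cell-specific GTPase genes Tgtp1 and Tgtp2 fell, with log2 fold changes of -2.28 (adjusted p = 0.000397) and -1.53 (adjusted p = 0.000807); they are near copies, and Tgtp1 overlaps Gm12185, so their split is uncertain.

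Of the 10 guanylate-binding protein genes on the list, Gbp2, Gbp3, Gbp4, Gbp6, Gbp7, Gbp8 and Gbp11 were called lower. Gbp2 stood at 70.6, 42.7 and 33.3 CPM on water and 8.94, 10.7 and 14.5 CPM on zinc (log2 fold change -2.10 ± 0.34 (SE), adjusted p = 0.028). Gbp4 stood at 27.9, 20.5 and 14.1 CPM on water and 3.20, 4.67 and 6.63 CPM on zinc (log2 fold change -2.11 ± 0.31 (SE), adjusted p = 0.00975), and Gbp11 at 3.41, 2.86 and 2.24 CPM and 0.298, 0.503 and 0.527 CPM (log2 fold change -2.65 ± 0.33 (SE), adjusted p = 0.0013). In each of them water replicate 1 was the highest library and zinc replicate 4 the lowest. Gbp5, Gbp9 and Gbp10 did not pass; Gbp5 had a log2 fold change of -1.09 (adjusted p = 0.091). Gbp4, Gbp8 and Gbp9 overlap one another on the same strand and Gbp6 overlaps Gm43302, so reads may be split between these copies. The call of Gbp2 was lost without unnumbered a (adjusted p = 0.0811) or without any of the 3 zinc libraries (adjusted p = 0.0806 to 0.085).

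Other genes of the list that fell were Ubd, which encodes the ubiquitin-like protein FAT10, from 476, 414 and 372 CPM to 122, 128 and 208 CPM (log2 fold change -1.46 ± 0.22 (SE), adjusted p = 0.016), and Ido1, which degrades tryptophan, from 305, 283 and 252 CPM to 121, 127 and 169.5 CPM (log2 fold change -1.01 ± 0.13 (SE), adjusted p = 0.0022). The transcription factor Irf8 fell with a log2 fold change of -0.82 (adjusted p = 0.00252), the cytokine signalling inhibitor Socs1 with one of -1.41 (adjusted p = 0.016), the GTPase Ifi47 with one of -0.81 (adjusted p = 0.014) and Nlrc5, the transactivator of MHC class I genes, with one of -0.83 (adjusted p = 0.0201). The chemokine genes Cxcl9 and Cxcl11, whose products draw T cells, fell, with log2 fold changes of -1.21 (adjusted p = 0.0494) and -1.16 (adjusted p = 0.0314). For Cxcl9 the call was lost without water replicate 1 (adjusted p = 0.124), unnumbered a (0.172), zinc replicate 5 (0.126) or zinc replicate 6 (0.187). MHC class I processing genes of the list (Psmb8, Psmb9, Psmb10, Tap1, Tap2, Tapbp, B2m) and the nitric oxide synthase Nos2 (0.02, adjusted p = 0.95) were not called. Of 7 MHC class II genes none was called, and the median was -0.29. Ifi47 overlaps Olfr56 and Nlrc5 overlaps 9330175E14Rik.

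Of the 19 calls, 8 held whichever library was left out (Iigp1, Irgm1, Tgtp1, Tgtp2, Gbp4, Gbp7, Gbp11 and Ido1). Without unnumbered a 9 genes of the list were called, without water replicate 1 11, without zinc replicate 5 13, and without water unnumbered b 20. Water replicate 1 was the highest water library for all 19 genes and zinc replicate 6 the highest zinc library for 15 of them. The calls lost, beside those of Gbp2 and Cxcl9, were without unnumbered a those of Gbp8 (0.0507), Gbp3 (0.0545), Ifi47 (0.0592), Socs1 (0.07), Ubd (0.0625), Gbp6 (0.0907), Nlrc5 (0.0876) and Cxcl11 (0.105), without water replicate 1 those of Irf8 (-0.69), Gbp3 (0.0543), Ifi47 (-0.68), Ubd (0.0515), Gbp6 (0.0649), Nlrc5 (0.0675) and Cxcl11 (0.121), without zinc replicate 4 those of Irf8 (-0.73), Ifi47 (-0.71) and Nlrc5 (-0.69), without zinc replicate 5 those of Gbp3 (0.0566), Ifi47 (0.0562), Nlrc5 (0.0764) and Cxcl11 (0.0875) and without zinc replicate 6 that of Gbp6 (0.0617), where a negative number is a log2 fold change short of the threshold and any other an adjusted p. With the muscle-poor GRWT water libraries added to the fit, the calls of Gbp2, Gbp7, Gbp8, Socs1 and Cxcl9 were lost. Across the list the summed level was 7210.4 to 8315 CPM in the water libraries and 5053 to 5730.0 CPM in the zinc libraries.

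**Figure D2:**
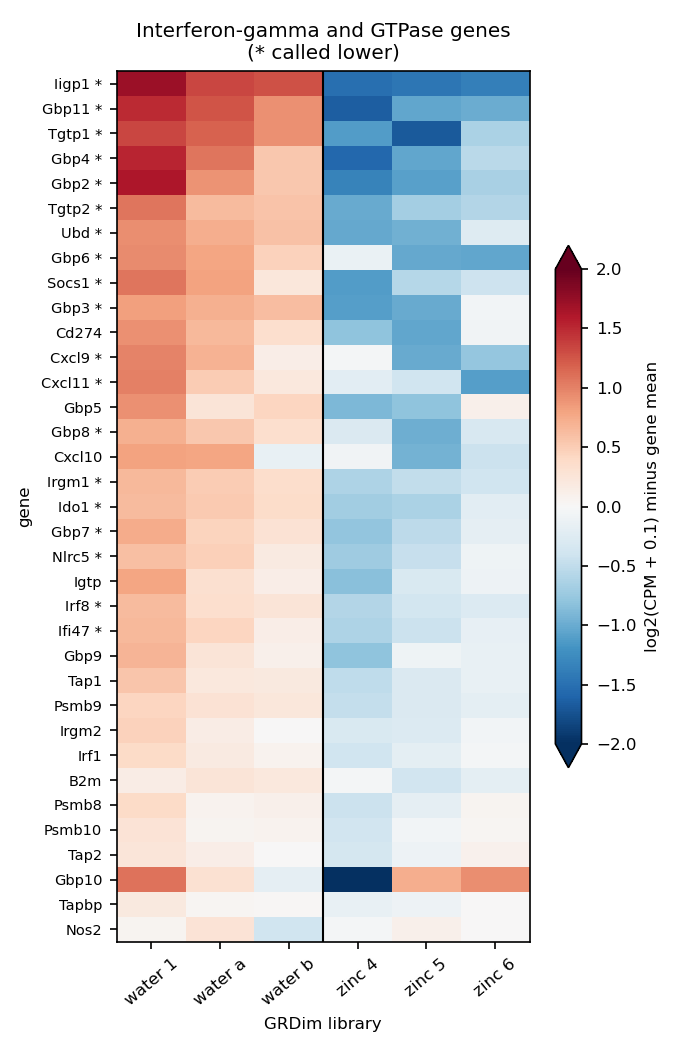
Heat map of the 35 interferon-gamma-induced and GTPase genes (rows, ordered by fold change, asterisks for called genes) in the 6 libraries (columns), as log2(CPM + 0.1) minus the mean of the gene, with colours ending at 2 in either direction. Nearly all rows are red in the 3 water libraries and blue in the 3 zinc libraries, most strongly so for Iigp1 and Gbp11, and Gbp10, Tapbp and Nos2, in the bottom 3 rows, do not show it or show it least.

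The promoter windows of Irgm1 and Gbp2 are shown because both genes fell and both windows hold the core of the interferon-stimulated response element, GAAANNGAA on either strand, in capitals. The 2 matches in the Irgm1 window overlap, and the Gbp2 window holds 1. Of the 12512 windows of tested genes, 7.09% held a match. Ifit2, described next, has no match in either of its 2 windows, which says only that these letters are not there.
Irgm1, chr11:48871371-48871670, minus strand: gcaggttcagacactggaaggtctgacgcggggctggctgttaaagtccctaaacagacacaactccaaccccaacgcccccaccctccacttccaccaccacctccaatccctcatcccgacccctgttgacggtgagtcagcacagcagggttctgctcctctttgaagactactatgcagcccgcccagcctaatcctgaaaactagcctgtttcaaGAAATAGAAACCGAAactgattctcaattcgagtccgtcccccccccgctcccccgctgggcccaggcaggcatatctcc
Gbp2, chr3:142620413-142620712, plus strand: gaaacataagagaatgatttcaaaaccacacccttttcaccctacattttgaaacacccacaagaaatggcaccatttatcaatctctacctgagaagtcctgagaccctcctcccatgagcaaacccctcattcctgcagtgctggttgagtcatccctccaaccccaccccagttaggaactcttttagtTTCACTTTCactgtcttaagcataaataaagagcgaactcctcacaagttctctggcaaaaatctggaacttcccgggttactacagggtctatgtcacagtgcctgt

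The 41 type 1 interferon-stimulated genes tested were mixed. Of these, 8 were called lower and 2 higher, beside 1.05% and 0.653% of all genes, with a median of -0.18, and without unnumbered a 4 were called lower and none higher. Ifit2, an RNA-binding antiviral protein, had the largest fall, from 62.3, 48.5 and 43.1 CPM to 8.42, 7.91 and 7.61 CPM (log2 fold change -2.68 ± 0.14 (SE), adjusted p = 2.25e-06), a call kept in every setting tried. Ifitm3, a membrane protein that blocks viral entry, fell from 58.1, 60.1 and 56.4 CPM to 30.4, 28.9 and 30.5 CPM (log2 fold change -0.96 ± 0.08 (SE), adjusted p = 6.6e-05), and the ubiquitin ligase Herc6 from 32.3, 30.6 and 22.9 CPM to 10.7, 9.85 and 12.8 CPM (log2 fold change -1.36 ± 0.15 (SE), adjusted p = 0.000704). In both genes the groups were apart. Usp18, which removes ISG15 from proteins, fell with a log2 fold change of -1.78 (adjusted p = 0.0152), Ifi44 with one of -1.58 (adjusted p = 0.0117), Oasl1 with one of -1.34 (adjusted p = 0.0206) and Ifit1bl1 with one of -1.17 (adjusted p = 0.00964). The other members did not move alike. Mx1, an antiviral GTPase, rose from 1.78, 0.955 and 1.36 CPM to 3.35, 2.37 and 3.39 CPM (log2 fold change 1.15 ± 0.28 (SE), adjusted p = 0.0356) and the receptor transporter Rtp4 from 4.89, 4.41 and 4.28 CPM to 9.76, 6.47 and 9.49 CPM (log2 fold change 0.92 ± 0.18 (SE), adjusted p = 0.0151). Neither kept its call without unnumbered a (adjusted p = 0.166 and 0.0855), and Mx1 also lost it without 4 of the other 5 libraries (adjusted p = 0.0519 to 0.0882). Irf7, Oas1a and Isg15 were not called; Isg15 had a log2 fold change of -0.67 (adjusted p = 0.12) and Irf7 of -0.08 (adjusted p = 0.791). The calls of Usp18 (without water unnumbered a at an adjusted p of 0.0568, zinc replicate 5 at an adjusted p of 0.0652 and zinc replicate 6 at an adjusted p of 0.0804), Ifi44 (without water replicate 1 at an adjusted p of 0.0573 and water unnumbered a at an adjusted p of 0.0552) and Oasl1 (without water unnumbered a at an adjusted p of 0.087 and zinc replicate 4 at an adjusted p of 0.0859) were lost when the library named was left out. Herc6 overlaps Gm45193 and Usp18 overlaps Gm44148.

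Among 12 necroptosis and cell death mediators, 3 were called lower and none higher (median -0.45), beside 1.05% of all genes lower. Zbp1, a nucleic acid sensor that can start necroptosis and is also on the type 1 interferon list, fell from 150.4, 119 and 105 CPM to 51.4, 58.8 and 81.3 CPM (log2 fold change -0.97 ± 0.19 (SE), adjusted p = 0.0297). The gasdermin genes Gsdmc2 and Gsdmc3, of the family that forms membrane pores, fell, with log2 fold changes of -0.86 (adjusted p = 0.0107) and -0.87 (adjusted p = 0.00717). None of these 3 calls held whichever library was left out; Gsdmc2 lost it without water unnumbered a at an adjusted p of 0.0582 and zinc replicate 5 at a log2 fold change of -0.69, Gsdmc3 without water unnumbered a at an adjusted p of 0.0507 and zinc replicate 5 at a log2 fold change of -0.77, and Zbp1 lost it without water replicate 1 (adjusted p = 0.0635), unnumbered a (0.0939), zinc replicate 4 (0.0548) or zinc replicate 5 (0.0846). Mlkl, the pore-forming executor of necroptosis, stood at 45.2, 36.2 and 35.2 CPM on water and 24.9, 22.0 and 26.4 CPM on zinc, with groups that did not overlap (log2 fold change -0.67 ± 0.11 (SE), adjusted p = 0.00677), below the fold threshold. Its activating kinase Ripk3 stood at 60.6, 52.2 and 52.2 CPM and 39.5, 40.4 and 41.3 CPM (log2 fold change -0.45 ± 0.08 (SE), adjusted p = 0.0116), again under the threshold.

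Of 20 tested genes of the epithelial response to adherent microbes, 3 were called lower and none higher, beside 1.05% of all genes lower, and the median was -0.68. The count was 8 without unnumbered b, 5 without water replicate 1, 2 without zinc replicate 6, 6 with DESeq2 and 5 with a minimum count of 50. Duox2 and Duoxa2, the hydrogen peroxide-producing oxidase of the mucosa and its maturation factor, fell together. Duox2 went from 202, 170.1 and 127 CPM to 81.9, 78.0 and 90.1 CPM (log2 fold change -0.998 ± 0.15 (SE), adjusted p = 0.00677) and Duoxa2 from 35.3, 27.3 and 16.7 CPM to 7.60, 6.98 and 7.08 CPM (log2 fold change -1.87 ± 0.26 (SE), adjusted p = 0.00599). Duoxa2 lies opposite Duoxa1, whose counts cannot be told apart from its own if the strand was not used, and its call was lost without zinc replicate 6 (adjusted p = 0.0537). The amino acid transporter Slc6a14 fell from 247, 223 and 199 CPM to 69.2, 36.9 and 56.1 CPM (log2 fold change -2.04 ± 0.22 (SE), adjusted p = 0.00381), with its lowest water library far above its highest zinc library; the call was lost with all 12 GRDim libraries in the fit (adjusted p = 0.0974), and the change in the muscle-rich libraries did not pass (-1.51 (adjusted p = 0.341)). The genes of this list varied widely among the water libraries. Plet1 stood at 57.2, 33.9 and 11.9 CPM on water and 1.94, 2.01 and 1.73 CPM on zinc; the groups did not overlap, but it was not called (log2 fold change -4.17 ± 0.80 (SE), adjusted p = 0.0625), and it was called in 5 of 14 alternatives (without water replicate 1 or unnumbered b, with DESeq2, with a minimum count of 50 and with all 12 GRDim libraries in the fit). It overlaps Plet1os. The antimicrobial lectin genes Reg3b, at 11338, 6684 and 2705 CPM on water and 5272, 4439 and 4463 CPM on zinc, and Reg3g, at 3383, 2258 and 1040.3 CPM and 1036, 870.0 and 1005 CPM, were highest in water replicate 1 and lowest among the water libraries in unnumbered b, and neither passed (adjusted p = 0.626 and 0.221). Saa1, an acute-phase protein, stood at 216, 97.2 and 35.5 CPM and 22.5, 33.4 and 44.5 CPM (adjusted p = 0.282).

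**Figure D3:**
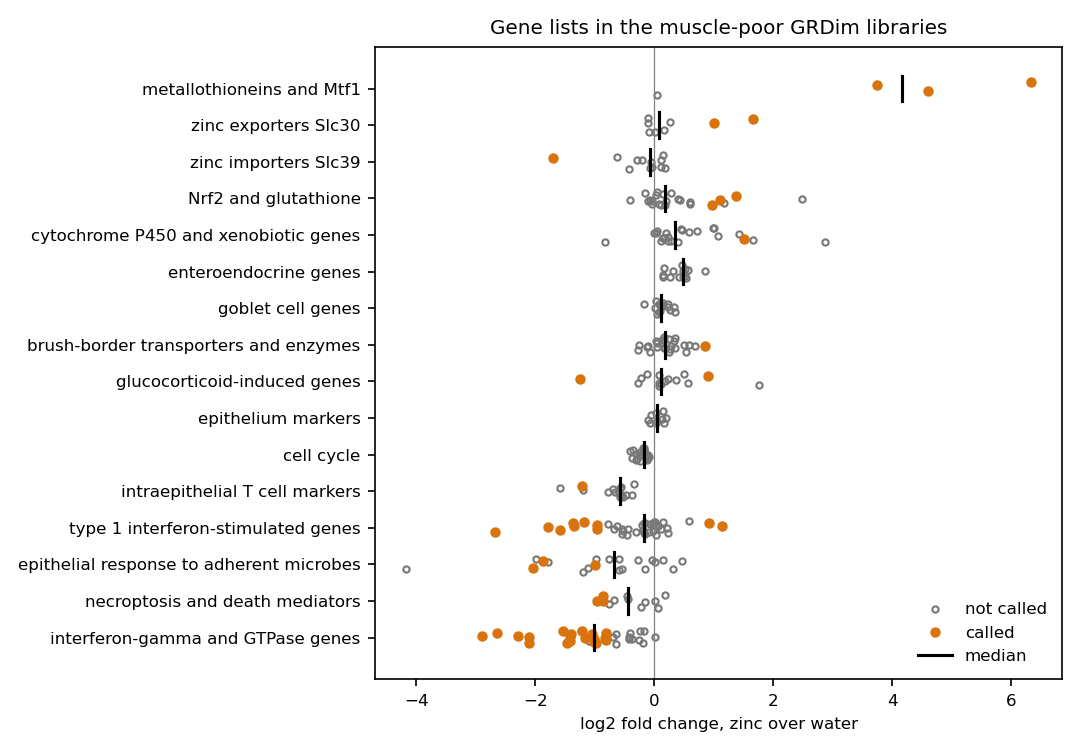
Log2 fold changes, zinc over water, of the tested members of 16 gene lists; each point is a gene, filled where called and open where not, and the black bar is the median of the list. The interferon-gamma and GTPase list lies lowest, with 19 filled points on the left, the metallothioneins lie farthest to the right, and the 10 epithelium markers and 25 cell cycle genes sit near 0.

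The summed markers of T cells, of B and plasma cells and of myeloid cells were lower in all 3 zinc libraries than in any water library, although few single markers passed the test (1.05% of all genes were called lower), and the sums of mucosal mast cell markers overlapped. All 15 tested markers of intraepithelial T cells, the lymphocytes that lie between enterocytes, had negative log2 fold changes (median -0.57), although only the chemokine gene Xcl1 was called (log2 fold change -1.22 ± 0.29 (SE), adjusted p = 0.0348), a call lost without 5 of the 6 libraries in turn (adjusted p = 0.0531 to 0.148). The number of these markers called lower was 7 without zinc replicate 6, 4 without unnumbered b, and 0 without any one of the other 4 libraries, and it was 2 with DESeq2. Their summed level was 487 to 699 CPM in the water libraries and 294 to 424 CPM in the zinc libraries, with the groups apart and all 16 markers present. In bulk tissue, fewer cells of a type and less RNA per cell cannot be told apart. The granzyme genes Gzma, at 176, 141 and 91.9 CPM on water and 52.2, 54.9 and 71.0 CPM on zinc (adjusted p = 0.0584), and Gzmb, at 117, 100.2 and 55.0 CPM and 29.7, 24.5 and 37.1 CPM (adjusted p = 0.0625), which encode killing proteases, did not pass although their groups were apart. Zinc replicate 6 was the highest zinc library for 14 of these 15 markers, as it was for 15 of the 19 lowered interferon-gamma-induced genes. How much these markers bear on the lowered interferon genes was not tested.

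The 10 B and plasma cell markers summed to 29.2 to 42.7 CPM in the water libraries and 10.3 to 26.0 CPM in the zinc libraries, with Tnfrsf17 at 3 counts or fewer in every library, as were Fcgr1 among the myeloid and Cdh5 among the endothelium markers. Of 4 tested, Jchain, the joining chain of secreted antibodies, was called lower (2 were without zinc replicate 6), beside 1.05% of all genes, from 27.3, 36.0 and 24.6 CPM to 10.2, 7.55 and 14.8 CPM (log2 fold change -1.43 ± 0.24 (SE), adjusted p = 0.0129). In the muscle-rich GRDim libraries Jchain stood at 4396, 3885 and 4874 CPM on water and 3636, 3527 and 4449 CPM on zinc. Its log2 fold change there was -0.18 (adjusted p = 0.316). What the far lower amounts here stem from was not tested. Myeloid markers summed to 39.6 to 52.0 CPM in the water libraries and 30.8 to 37.0 CPM in the zinc libraries, with Itgam called (-0.85, adjusted p = 0.0294) out of 6 tested, and endothelium markers to 9.99 to 12.8 CPM in the water libraries and 7.08 to 7.41 CPM in the zinc libraries, with Lyve1 called (-0.88, adjusted p = 0.00616) out of 3 tested. The call of Itgam was lost without water replicate 1 (adjusted p = 0.108), unnumbered a (0.145) or zinc replicate 4 or 6 (0.0441, under the fold threshold, and 0.0544), and that of Lyve1 without zinc replicate 6 (-0.80, adjusted p = 0.0112). In the muscle-rich libraries Itgam changed by -0.55 (adjusted p = 0.0166) and Lyve1 by -0.15 (adjusted p = 0.197), neither called. Smooth muscle markers summed to 219 to 231 CPM in the water libraries and 184 to 240.5 CPM in the zinc libraries and fibroblast markers to 31.9 to 44.4 CPM in the water libraries and 17.9 to 55.0 CPM in the zinc libraries, both with overlapping groups and no call, as had mucosal mast cell markers. The fibroblast overlap rested on zinc replicate 5, without which 2 of 5 fibroblast markers were called lower (median -0.72).

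**Figure D4:**
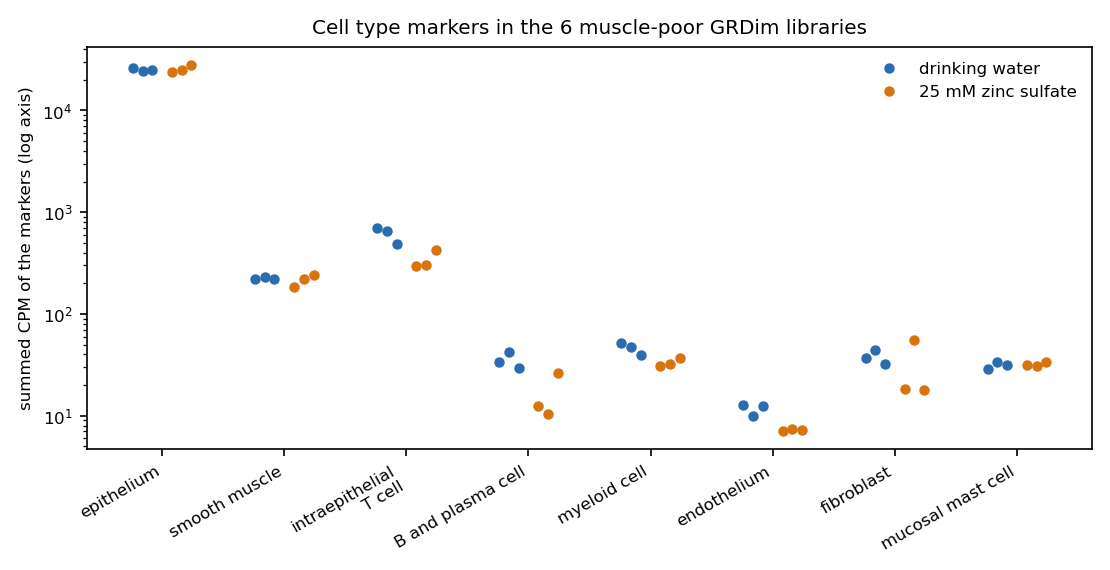
Summed TMM-normalised CPM, on a log axis, of 8 lists of cell type markers in the 6 libraries, blue for water and orange for zinc. T cell, B and plasma cell, myeloid and endothelium sums are lower in all 3 zinc libraries, while epithelium, smooth muscle, fibroblast and mast cell sums overlap between the groups.

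Several epithelial and metabolic lists held only 1 to 3 called members, to be read beside the 0.653% of all genes called higher and the 1.05% called lower. Of 23 Nrf2 and glutathione genes, which detoxify electrophiles, 3 rose: Gsta4 by 0.97 (adjusted p = 0.00194), the retinaldehyde dehydrogenase Aldh1a1 by 1.37 (adjusted p = 0.00293) and Gstm1 by 1.10 (adjusted p = 0.0449), with a median of 0.19. Aldh1a1 stood at 218, 249 and 274 CPM on water and 799, 615 and 501 CPM on zinc. Gstm1 lost its call without any of the 3 water libraries (adjusted p = 0.0664 to 0.172) or zinc replicate 5 (0.0986). Of 24 cytochrome P450 and xenobiotic genes 23 had positive log2 fold changes (median 0.35); Cyp2d26 was called, from 39.0, 56.0 and 66.4 CPM to 170.1, 148 and 145 CPM (log2 fold change 1.52 ± 0.17 (SE), adjusted p = 0.00242). In this list 4 genes were called higher with DESeq2, 3 without zinc replicate 4 and 2 without unnumbered b. Of 10 steroid-metabolising enzymes, Hsd3b3 and Akr1c19 (0.90, adjusted p = 0.00405) rose, and of 21 PPAR alpha and fatty acid oxidation genes the lipase inhibitor Angptl4 rose from 18.4, 23.2 and 22.6 CPM to 56.0, 50.6 and 66.9 CPM (log2 fold change 1.43 ± 0.12 (SE), adjusted p = 0.000136). Aqp7, a glycerol channel, was the only call among 26 brush-border transporters and enzymes (0.86, adjusted p = 0.0416), Defa22 that among 13 Paneth cell products (0.81, adjusted p = 0.00377; alpha-defensins are near copies of one another) and Hspa1b that among 10 heat shock genes (1.26, adjusted p = 0.0308). These 3 and Akr1c19 each lost the call without at least 2 of the 6 libraries in turn: Aqp7 without water replicate 1 (adjusted p = 0.119), unnumbered a (0.139) or zinc replicates 4 and 6 (0.0589 and 0.0704), and Hspa1b without any water library (0.0779 to 0.121) or zinc replicate 6 (0.0958). Defa22 (0.69 without zinc replicate 5, 0.73 without unnumbered b) and Akr1c19 (0.78 without water replicate 1, 0.79 without zinc replicate 4) went under the fold threshold.

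Nr3c1, the gene of the mutant receptor itself, stood at 208, 239 and 245 CPM on water and 288, 263 and 263 CPM on zinc (log2 fold change 0.23 ± 0.08 (SE), adjusted p = 0.118). Of 15 glucocorticoid-induced genes tested, 1 rose and 1 fell, beside 0.653% and 1.05% of all genes, with a median of 0.11 against -0.00052 over all genes tested; 2 rose without water replicate 1 or unnumbered b. The clock gene Per1 rose from 11.8, 13.4 and 12.2 CPM to 19.7, 25.4 and 25.1 CPM (log2 fold change 0.91 ± 0.12 (SE), adjusted p = 0.00194), and Tat, tyrosine aminotransferase, fell from 7.12, 5.36 and 3.20 CPM to 2.83, 2.16 and 1.58 CPM (log2 fold change -1.24 ± 0.31 (SE), adjusted p = 0.0441). Tat lost its call without water replicate 1 (adjusted p = 0.148), unnumbered a (0.158), zinc replicate 5 (0.137) or zinc replicate 6 (0.0876). No gene was called among 14 enteroendocrine genes, all with positive log2 fold changes (median 0.48), 25 cell cycle genes, all negative (median -0.17), 15 goblet cell genes, 13 intestinal stem cell genes, 20 sterol synthesis genes and 11 genes of the ileal bile acid axis. Leaving out 1 library gave 1 call, higher, in the bile acid list without unnumbered a, unnumbered b or zinc replicate 5 or 6, and 1 in the enteroendocrine list without zinc replicate 4. Fabp6, the ileal bile acid binding protein, stood at 9152, 9284 and 8174 CPM on water and 9246, 8983 and 11061 CPM on zinc (log2 fold change 0.14 ± 0.11 (SE), adjusted p = 0.487).

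Other large falls lay outside the lists. Asprv1, an aspartic protease known from skin, fell from 9.64, 6.02 and 5.58 CPM to 0.894, 1.08 and 0.979 CPM (log2 fold change -2.83 ± 0.28 (SE), adjusted p = 0.00033), and the lipoxygenase Alox15 from 4.89, 2.72 and 3.94 CPM to 0.522, 0.647 and 1.36 CPM (log2 fold change -2.19 ± 0.35 (SE), adjusted p = 0.005). Ifi202b, an interferon-inducible DNA-binding protein, fell with a log2 fold change of -2.17 (adjusted p = 0.000956). Pax4, a transcription factor of endocrine cells, stood at 3.34, 1.62 and 0.748 CPM on water and 0, 0.360 and 0.151 CPM on zinc (log2 fold change -3.38 ± 0.80 (SE), adjusted p = 0.0422), a call lost without any single library but unnumbered b (adjusted p = 0.0575 to 0.13). Greb1l (-2.09, adjusted p = 0.014) lost its call without unnumbered a (0.0629) or zinc replicate 5 (0.0683). Chosen after their values were seen, the Toll-like receptor genes Tlr1, Tlr2 and Tlr4, which sense bacterial lipoproteins and lipopolysaccharide, were also called lower, beside 1.05% of all genes. No count over the whole receptor family is given, so these genes describe no pattern of the family. Whether their calls held with a library left out is not given either. Tlr1 stood at 22.9, 21.6 and 18.2 CPM on water and 8.64, 6.26 and 8.21 CPM on zinc (log2 fold change -1.44 ± 0.14 (SE), adjusted p = 0.000368), Tlr2 at 14.8, 13.6 and 12.3 CPM and 4.99, 5.90 and 6.55 CPM (log2 fold change -1.22 ± 0.14 (SE), adjusted p = 0.000956) and Tlr4 at 4.23, 4.41 and 4.62 CPM and 1.19, 1.22 and 0.829 CPM (log2 fold change -2.02 ± 0.23 (SE), adjusted p = 0.000807). Il18bp, the secreted inhibitor of interleukin-18, also seen in this way, fell from 87.1, 74.7 and 64.7 CPM to 20.6, 22.7 and 32.8 CPM (log2 fold change -1.57 ± 0.17 (SE), adjusted p = 0.00203).

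The other 6 GRDim libraries, rich in muscle, share no library with these and carry the tissue labels the other way round. Whether the labels of the GRDim water libraries, which go against their muscle content, were exchanged was not tested. Whether both came from the same mice is not stated. There, of 15237 genes tested, 120 (0.788%) were higher and 121 (0.794%) lower on zinc. Both comparisons called 33 genes higher, which is 37.9% of the muscle-poor and 27.5% of the muscle-rich list, and 45 lower, which is 32.1% and 37.2%. No gene was called in opposite directions. Of the muscle-poor calls that could be tested there, 83 of 86 higher and 133 of 137 lower genes had the same sign.

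Mt1 was measured in the muscle-rich libraries at 77.0, 84.0 and 57.5 CPM on water and 1445, 1750.5 and 1354 CPM on zinc, a log2 fold change of 4.38 (adjusted p = 0.000551), and Slc39a4 at 157, 158 and 179 CPM on water and 60.9, 48.2 and 53.4 CPM on zinc, a log2 fold change of -1.61 (adjusted p = 1.81e-05). For both genes the groups were apart there too. Mt2 changed by 4.86 (adjusted p = 0.00629), Slc30a2 by 1.78 (adjusted p = 0.0104) and Ifit2 by -1.88 (adjusted p = 0.017) there. Iigp1 changed by -1.23 (adjusted p = 0.0343) against -2.90 in the muscle-poor libraries, and Gbp2 by -1.06 (adjusted p = 0.000208) against -2.10. Clu, called in the muscle-poor libraries, stood at 32.1, 24.4 and 22.6 CPM on water and 47.4, 30.8 and 26.1 CPM on zinc in the muscle-rich ones, a log2 fold change of 0.40 (adjusted p = 0.476). The list of interferon-gamma-induced and GTPase genes had 11 of 35 called lower there, with a median of -0.54. Other lists differed in both directions. Type 1 interferon-stimulated genes had 2 of 41 called lower there (median -0.09). The adherent-microbe list had 8 of 20 called lower (median -0.78) and intraepithelial T cell markers 4 of 15 (median -0.60), beside 0.794% of all genes. Of cytochrome P450 and xenobiotic genes 7 of 22 were called higher (median 0.49), beside 0.788%.

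A test of the difference between both zinc effects, over 15459 genes in the 12 GRDim libraries, was passed by 3 genes (0.0194%), and 1225 genes had an unadjusted p under 0.05. The values of 2 of them are given here. Slc43a3, a purine base transporter, fell from 4.15, 3.60 and 4.28 CPM to 1.12, 1.15 and 1.51 CPM in the muscle-poor libraries (log2 fold change -1.67 ± 0.23 (SE), adjusted p = 0.00204) and changed by -0.36 (adjusted p = 0.0205) in the muscle-rich ones, a difference of -1.32 ± 0.21 (SE), adjusted p = 0.0437. The transferrin receptor gene Tfrc, which imports iron, stood at 238, 281 and 291 CPM on water and 243, 183 and 220.1 CPM on zinc in the muscle-poor libraries (log2 fold change -0.32 ± 0.11 (SE), adjusted p = 0.115), with overlapping groups, and at 283, 296 and 282 CPM on water and 513, 512 and 429 CPM on zinc in the muscle-rich ones, a log2 fold change of 0.76 (adjusted p = 4.21e-05); the difference was -1.09 ± 0.14 (SE), adjusted p = 0.0126. By the labels, the difference tested equals that of all IEC from all ileum libraries, and both cannot be told apart. The differences for Clu (2.27 ± 0.34 (SE), adjusted p = 0.0706), Iigp1 (-1.69 ± 0.29 (SE), adjusted p = 0.117) and Gbp2 (-1.05 ± 0.39 (SE), adjusted p = 0.584) did not pass.

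**Figure D5:**
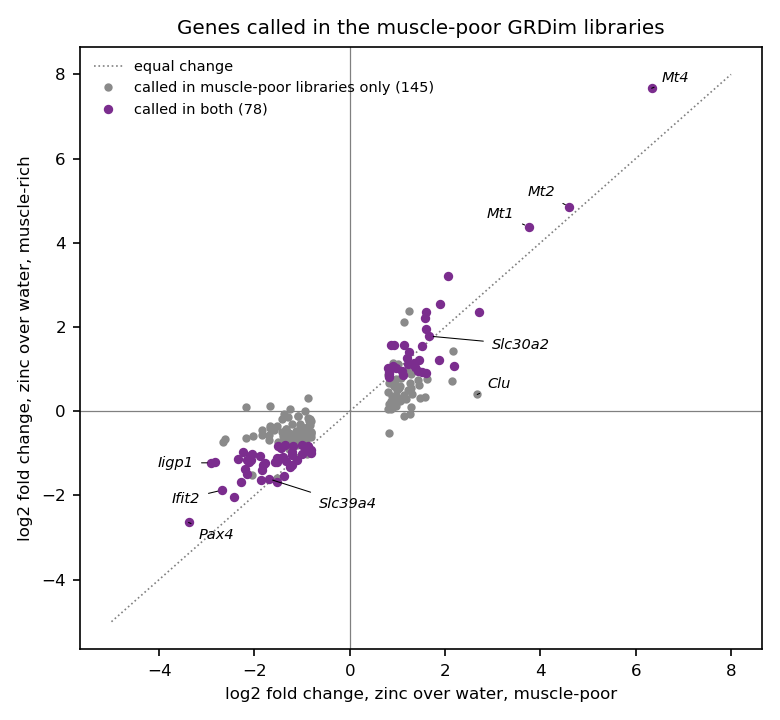
Log2 fold change, zinc over water, of the genes called in the muscle-poor GRDim libraries (horizontal) against the same genes in the muscle-rich GRDim libraries (vertical); each point is a gene tested in both, purple for the 78 called in both and grey for the 145 others, and the dotted line marks equal change. Mt4, Mt2 and Mt1 lie at the upper right and most points lie in the quadrants of equal sign, while Clu lies near 0 on the vertical axis.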

How the data were processed

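Per the labels and methods, libraries were stranded and read from 1 end; the authors aligned reads to mm10 with hisat 2.0.4 and deposited raw read counts per gene from featureCounts without multimapping reads. Annotation release and strand setting are not given in the sources used here, so overlapping genes are uncertain. Counts of 54838 genes in 22 libraries were read, and 54723 gene identifiers were found in GENCODE vM21, the source of names and positions.

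Zinc (3) was compared with water (3) in edgeR 4.0.16 (R 4.3.3; TMM, filterByExpr with a minimum count of 10, robust quasi-likelihood F test), with Benjamini-Hochberg adjustment over all genes tested. Calls needed an adjusted p under 0.05 and a log2 fold change beyond 0.8; the test of the difference used adjusted p alone. CPM values are TMM-normalised except those of Myh11, and of Fabp6 in the part on processing, which are scaled to library totals alone, and SEs derive from F. On simulated data for the muscle-poor comparison the script recovered 91% of 2-fold and 100% of 4-fold changes. These changes were placed only in genes with higher counts. Every gene was given the typical spread for its level, without outlying libraries. The shares therefore need not hold for low or more variable genes in the real data. Drawings used matplotlib 3.10.9.

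The members and lists were chosen with earlier results of these data known. The genes named are the 12 largest changes per direction with a mean of at least 1 CPM (leaving out immune receptor segments and unnamed genes), every called list member, 20 fixed genes and those passing the test of the difference, with uncalled list members and other genes chosen after their values were seen; some genes that the rule names are not reported here. Alternatives were DESeq2 1.42.0, its size factors, other count filters, other sets of libraries and leaving out each library.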

Additional observations from a re-analysis of the deposited data

Results flagged for a closer look

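The test of the difference between the zinc effects in muscle-poor and muscle-rich GRDim libraries (edgeR, 12 libraries) was passed by 3 genes, and 2 of them are given because they passed. By the labels this is also the difference of all IEC from all ileum libraries, and both cannot be told apart. The log2 difference, muscle-poor minus muscle-rich, was -1.09 for Tfrc (adjusted p = 0.0126) and -1.32 for Slc43a3 (adjusted p = 0.0437). Tfrc lost its pass without GRDim zinc ileum replicate 2 (adjusted p = 0.0572) or without any of the 3 GRDim water IEC libraries (0.0546 to 0.0781). Slc43a3 held without zinc IEC replicate 4 (0.031) or 6 (0.0174) and lost its pass without each of the other 10 libraries in turn (0.0556 to 0.147), and also with DESeq2 size factors in edgeR (0.0581). Groups of 3 libraries were too small for a check of single outlying values.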

How the results depend on the processing

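The muscle-poor counts, 87 higher and 140 lower, became 158 and 243 without a count filter (24788 genes tested), 405 and 327 with adjusted p alone, 135 and 221 with all 12 GRDim libraries in the fit, and 4 and 4 with all 10 muscle-poor libraries. In the last fit 1 library, GRWT zinc ileum replicate 3, held 11.7 CPM of the ileal gene Fabp6 (8297 to 10866 CPM in the 6 libraries described), and the common dispersion was 0.049 instead of 0.00899; without it, an alternative chosen after seeing the data, the counts were 79 and 126. DESeq2 (98 and 146), its size factors (87 and 139), a minimum count of 50 (67 and 108) and added GRWT water libraries (80 and 130) moved neither count by over 1.5 times. Leaving out 1 library gave 41 to 120 higher and 76 to 242 lower genes. The muscle-rich counts, 120 and 121, became 78 and 70 with a minimum count of 50, 1081 and 996 with adjusted p alone, and 70 to 244 and 76 to 191 without 1 library, the highest without GRDim zinc ileum replicate 3. The 3 genes passing the test of the difference became 37 with DESeq2, 130 without a count filter, and 0 to 82 without 1 library (0 without GRDim zinc ileum replicate 2, 82 without GRDim zinc IEC replicate 4); the cause was not tested. No named gene that was called changed sign in any alternative. Of 71 named called genes, 5 kept their call in all 14 alternatives (Mt1, Mt2, Mt4, Ifit2 and Slc39a4). Mtf1, not called, moved from 0.04 to between -0.0124 (without unnumbered b, adjusted p = 0.965) and 0.0755 (without water replicate 1). No paired analysis was possible because the water libraries carry number 1 or no number and the zinc libraries numbers 4 to 6. Low genes are limited by depth: under about 0.22 CPM a level cannot be told from 0.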
